A study of Homo sapiens with 8 samples.

Results

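Desmosomes are the spot junctions that fasten neighbouring epithelial cells together, and the 10 genes described here encode their cadherins (DSG2, DSG3, DSC2, DSC3), their plaque proteins (DSP, JUP, PKP1, PKP2, PKP3) and the membrane protein PERP. They were taken by name from a table of 28518 genes, and all 10 had enough counts to be among the 14834 genes tested. RNA was measured in HaCaT cells, an immortalised human keratinocyte line, that carried a knockout (KO) of CARD14 in every group. CARD14 is a scaffold protein of keratinocytes that carries signals to NF-kB. The cells had received 9 ug of a plasmid for CARD14 joined through T2A to eGFP, had fresh medium after 2 h, and were sorted for GFP 24 h after transfection. The plasmid encoded wild-type (WT) CARD14, R820W, N737H or I593T, which the series text calls hypomorphic, and each of the 4 constructs had 2 libraries, whose titles begin with A or B. Per the series text the work was done in 2 independent experiments. No label says which letter belongs to which experiment, and p-values here reflect only how far these libraries differ from each other, which may be technical. The cells were a pool selected for plasmid expression, no untransfected or empty-vector library was analysed here, and the labels do not say whether the knockout line was 1 clone.

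A desmosome is built in layers. The extracellular parts of desmogleins and desmocollins bind the neighbouring cell, their tails bind plakoglobin (JUP) and the plakophilins, and desmoplakin (DSP) ties that plaque to the keratin filaments. Desmogleins and desmocollins differ by layer of the epidermis, with DSG3 and DSC3 most abundant in basal cells, DSG2 and DSC2 widespread in simple and cultured epithelia, and DSG1 and DSC1 most abundant in differentiated layers. The junction is what fails in several skin diseases: DSG3 is the antigen of pemphigus vulgaris, and inherited defects of DSP, JUP and PKP1 cause fragile or thickened skin.

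Total counts ranged from 17892608 to 24629860 per library, and the 10 genes together took 0.177% to 0.220% of them. Levels are given as CPM, counts scaled to a common normalised library size. CARD14 itself, the transfected gene, stood at 444 CPM in N737H A and 500 CPM in I593T A and between 978 and 1410 CPM in the 6 other libraries. Its reads can come from the plasmid, so they do not check the knockout. The first principal component held 33.3% of the variance and separated every A library from every B library. Of the keratinocyte markers, all 7 were present, with summed levels of 2944 to 4874 CPM. The fibroblast markers summed to 0.504 to 2.23 CPM, the leukocyte markers to 2.20 to 9.75 CPM, mostly CD74, the melanocyte markers to 8.78 to 14.1 CPM, mostly MITF, and the endothelial markers to 1.09 to 2.85 CPM. TYR, which defines melanocytes, had no count in any library.

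The 4 cadherin genes lie in 1 cluster on chromosome 18, in the order DSC3, DSC2, DSC1, DSG1, DSG4, DSG3, DSG2 along the chromosome. DSP and PERP are both on chromosome 6, JUP on 17, PKP1 on 1, PKP2 on 12 and PKP3 on 11. The 250 bases before the start site were read for the 8 members with an entry in the RefSeq promoter table (build GRCh38.p14), which leaves out PKP2 and PKP3. Of these windows, 5 are printed: those of DSG3, DSC3, DSP and PERP, whose RNA was lower in the same libraries, and that of DSG2, whose RNA varied least. Capitals mark a match to a p53-family half-site (DSG3 and DSC3) or to the AP-1 motif TGANTCA (PERP), and matches to the GC box GGGCGG are left in lower case.

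DSG3: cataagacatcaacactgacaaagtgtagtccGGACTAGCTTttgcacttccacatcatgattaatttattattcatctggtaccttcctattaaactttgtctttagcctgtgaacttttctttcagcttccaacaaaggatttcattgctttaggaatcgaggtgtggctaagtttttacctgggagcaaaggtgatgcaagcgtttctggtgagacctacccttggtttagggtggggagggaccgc
DSC3: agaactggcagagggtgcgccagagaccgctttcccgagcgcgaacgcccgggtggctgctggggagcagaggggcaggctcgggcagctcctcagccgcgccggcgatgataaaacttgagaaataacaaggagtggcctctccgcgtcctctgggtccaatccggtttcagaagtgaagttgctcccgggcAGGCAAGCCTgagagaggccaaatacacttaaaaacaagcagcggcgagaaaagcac
PERP: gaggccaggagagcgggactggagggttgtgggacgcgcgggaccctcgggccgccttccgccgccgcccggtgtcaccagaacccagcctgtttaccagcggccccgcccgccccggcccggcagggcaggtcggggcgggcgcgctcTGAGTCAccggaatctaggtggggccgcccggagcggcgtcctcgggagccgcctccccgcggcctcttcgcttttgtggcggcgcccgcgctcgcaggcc
DSP: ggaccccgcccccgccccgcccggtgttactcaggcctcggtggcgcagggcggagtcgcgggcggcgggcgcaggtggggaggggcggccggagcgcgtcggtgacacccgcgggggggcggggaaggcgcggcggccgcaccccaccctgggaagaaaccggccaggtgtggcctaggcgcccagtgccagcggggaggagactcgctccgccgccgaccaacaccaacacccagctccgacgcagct
DSG2: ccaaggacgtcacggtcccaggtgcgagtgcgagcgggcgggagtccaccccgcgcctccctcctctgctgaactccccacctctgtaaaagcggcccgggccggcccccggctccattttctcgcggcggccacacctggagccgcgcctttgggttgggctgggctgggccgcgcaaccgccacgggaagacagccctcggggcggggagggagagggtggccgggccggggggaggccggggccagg

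These windows are chr18:31447491-31447740 on the plus strand for DSG3, chr18:31042743-31042992 on the minus strand for DSC3 and chr6:138107420-138107669 on the minus strand for PERP. Those of DSP and DSG2 are chr6:7541421-7541670 and chr18:31497927-31498176, both on the plus strand. The windows differed widely in base composition: GC content was 42.8% for DSG3, 60.4% for DSC3, 75.2% for DSG2, 77.2% for PERP and 78.0% for DSP, beside a median of 58.0% over 35116 promoters. DSG3 thus had the only printed window under 50% GC, a range that held 31.9% of all promoters. Both strands were searched for 6 motifs. A p53-family half-site lay from base -218 to -209 of DSG3 and from -57 to -48 of DSC3, and 5.57% of all promoters hold one. The AP-1 match of PERP lay from -101 to -95, and 6.57% of promoters hold the motif. DSP held 7 GC boxes, some of them overlapping each other, PERP 5 and DSG2 2, and 42.6% of promoters hold at least 1. The E-box CACGTG, the NF-kB motif and the grainyhead motif AACNGGTT did not occur in the window of any of the 8 members, and they occur in 6.35%, 9.96% and 1.49% of promoters. These matches are a description of letters in the reference and were not tested against the RNA values.

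Per kilobase of merged exons, PERP had the highest mean level of the 10 genes, 67.2 CPM per kb, followed by DSG3 at 51.5, DSG2 at 49.8 and DSP at 48.4 CPM per kb. PKP2 followed at 35.5, JUP at 24.7, PKP1 at 20.5 and DSC3 at 20.2 CPM per kb. DSC2 at 7.15 and PKP3 at 5.38 CPM per kb were lowest. Over the 8 libraries the ranges of most neighbours in this order overlapped. The exceptions were the steps from DSP down to PKP2 and from DSC3 down to DSC2. Counted on the longest coding transcript instead, DSG2 and DSG3 changed places. The cadherins of differentiated epidermis were close to 0: DSC1 stood at 0.0642 and DSG1 at 0.0128 CPM per kb, and DSG4, a desmoglein best known from hair, at 0.241 CPM per kb. PKP4 at 6.02 and the plaque protein periplakin (PPL) at 7.06 CPM per kb were at the level of DSC2 and PKP3, and envoplakin (EVPL) stood at 0.635 CPM per kb.

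**Figure D1:**
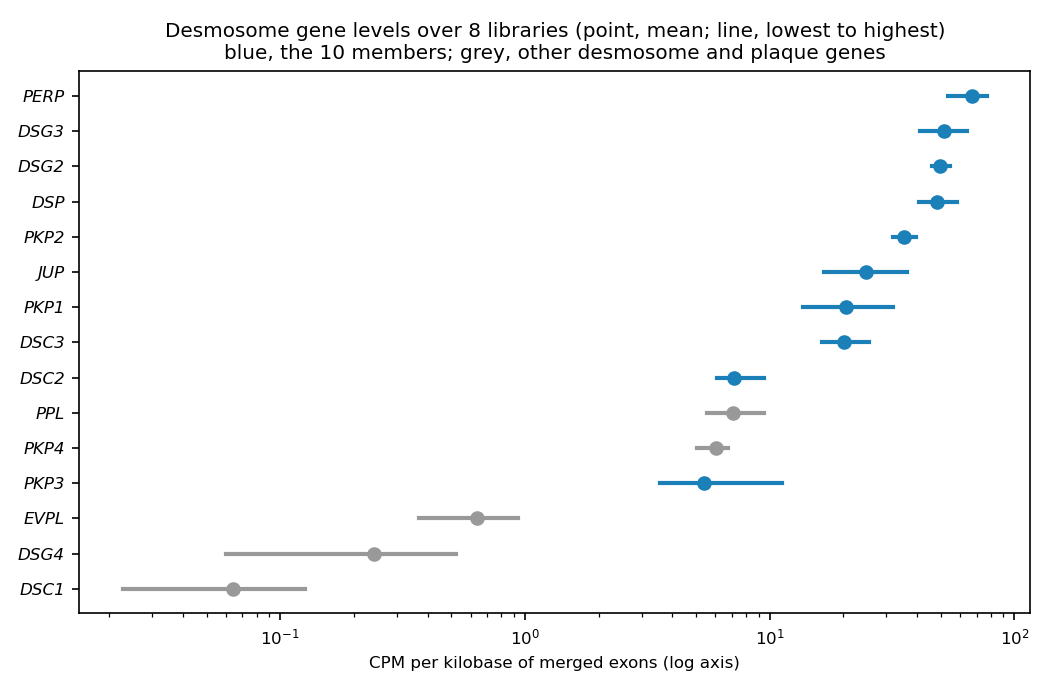
Level of each gene per kilobase of merged exons, on a log axis in CPM per kb. Points are means over 8 libraries and lines run from the lowest to the highest library; the 10 desmosome genes are blue and other desmosome and plaque genes grey, and DSG1 is left out because some libraries had no count. PERP is highest at 67.2 and PKP3 lowest of the 10 at 5.38 CPM per kb.

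Among the cadherins, DSG3 differed most between constructs. DSG3, the desmoglein of basal keratinocytes, stood at 306 and 355 CPM with WT (A and B), 320 and 347 with R820W, 231 and 248 with N737H, and 228 and 239 with I593T. All 4 N737H and I593T libraries therefore lay below all 4 WT and R820W libraries. DSC3, the basal desmocollin, stood at 180 and 141 CPM with WT, 161 and 141 with R820W, 135 and 130 with N737H, and 135 and 115 with I593T. Here too the 4 N737H and I593T libraries were the lowest, although WT B and R820W B were only a little above them.

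DSG2 and DSC2, the widespread cadherins, showed no such order. DSG2 stood at 299 and 305 CPM with WT, 286 and 324 with R820W, 312 and 339 with N737H, and 298 and 302 with I593T. It varied least of the 10 genes, with a coefficient of variation of 5.39% over the 8 libraries. DSC2 stood at 118 and 76.0 CPM with WT, 88.0 and 94.6 with R820W, 77.3 and 90.9 with N737H, and 81.4 and 88.4 with I593T. The WT pair held both the highest and the lowest DSC2 level, so the variants lay between the 2 WT libraries.

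Of the plaque genes, DSP showed the same split of the constructs as DSG3, though not the same order of single libraries. DSP, which links the plaque to keratin, stood at 518 and 536 CPM with WT, 573 and 487 with R820W, 416 and 397 with N737H, and 435 and 433 with I593T. The 4 N737H and I593T libraries were again the lowest. JUP, shared by desmosomes and adherens junctions, stood at 88.4 and 105.0 CPM with WT, 95.8 and 113.0 with R820W, 62.0 and 66.1 with N737H, and 67.2 and 135.1 with I593T. Both N737H libraries were the lowest of the 8, while the I593T pair held the next lowest and the highest level.

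The plakophilins bind cadherin tails and DSP and gather them at the membrane. PKP1, the plakophilin most abundant in stratified epithelia, stood at 74.3 and 174.2 CPM with WT, 92.3 and 166.2 with R820W, 75.1 and 103.3 with N737H, and 74.7 and 133.8 with I593T. Every B library exceeded every A library. PKP2, the plakophilin also found in heart and simple epithelia, stood at 174 and 148 CPM with WT, 163 and 141 with R820W, 176 and 150 with N737H, and 166 and 142 with I593T. It showed the opposite order, every A library being above every B library. PKP3, found in most epithelia, stood at 12.0 and 16.4 CPM with WT, 10.8 and 13.3 with R820W, 11.9 and 14.9 with N737H, and 9.99 and 31.6 with I593T. I593T B held 638 PKP3 counts and the 7 other libraries 245 to 340, and PKP3 varied most of the 10 genes, with a coefficient of variation of 46.1%.

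PERP, a p63 target that desmosomes of stratified epithelia need for their assembly, stood at 311 and 331 CPM with WT, 317 and 308 with R820W, 289 and 230 with N737H, and 277 and 244 with I593T. The 4 N737H and I593T libraries were the lowest. DSP, DSG3, DSC3 and PERP were thus the 4 of 10 genes with all N737H and I593T libraries below all WT and R820W libraries, a pattern found in 1.52% of the 14834 genes. None of the 10 had the opposite order, found in 0.701% of genes. The grouping of these constructs follows earlier results of these data, so the count is a description. Leaving out the 4 genes, the coefficient of variation ran from 5.39% (DSG2) to 46.1% (PKP3), and the 4 themselves had 12.5% to 18.8%.

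**Figure D2:**
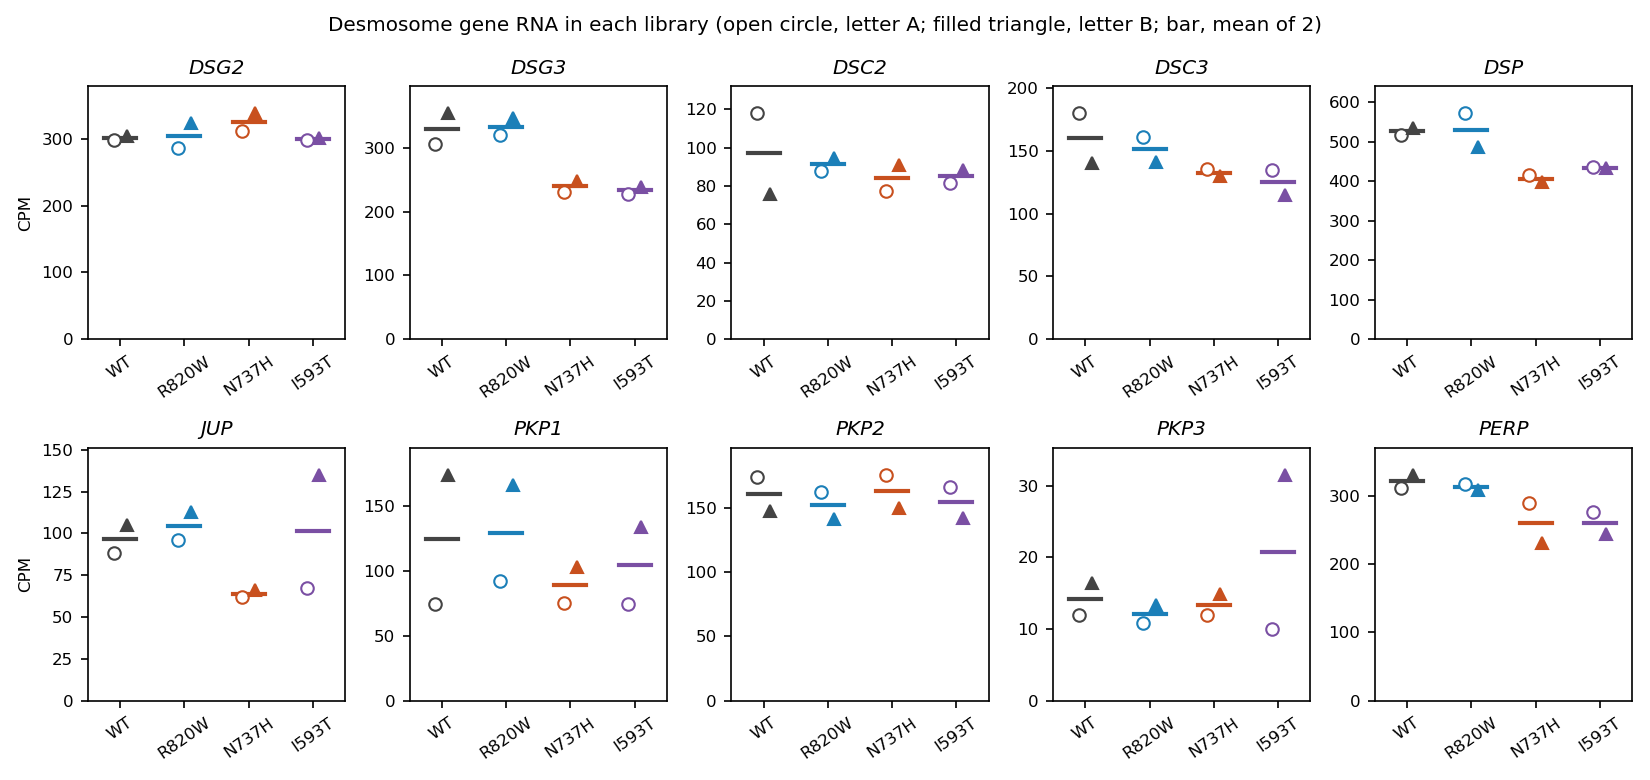
RNA level of each of the 10 genes in each of the 8 libraries, in CPM on linear axes from 0, by construct. Open circles are A libraries, filled triangles B libraries and bars the mean of 2; DSG3, DSP, DSC3 and PERP are lowest in the N737H and I593T libraries, and PKP1 is higher in B than in A with every construct.

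The series asked which genes respond differently to each variant than to WT CARD14. With N737H, no desmosome gene passed the test, and 8 of the 10 had a fitted difference below 0, with a median of -0.29 on the log2 scale beside -0.03 over all genes tested, of which 54.2% were below 0. DSG3 differed by -0.46 ± 0.15 (SE) on the log2 scale, from a mean of 331 ± 34.1 CPM (SD, n = 2) with WT to 240 ± 11.8 CPM with N737H. DSP differed by -0.37 ± 0.15, from 527 ± 12.8 to 407 ± 13.6 CPM, and JUP by -0.59 ± 0.30, from 96.7 ± 11.7 to 64.0 ± 2.91 CPM. PERP differed by -0.31 ± 0.16 and DSC3 by -0.27 ± 0.18. These 5 had both N737H libraries below both WT libraries, where 12.4% of all genes do. DSG2 had both above, where 9.92% of genes do, with a difference of 0.11 ± 0.14. PKP1 differed by -0.48 ± 0.46, DSC2 by -0.21 ± 0.22, PKP3 by -0.08 ± 0.47 and PKP2 by 0.02 ± 0.17.

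After adjustment over all 14834 genes with edgeR's quasi-likelihood test, the adjusted p was 1 for each of the 10, and 0% of all genes were called. At an unadjusted p under 0.05 the fit held 2 of the 10, DSG3 and DSP, beside 2.44% of all genes, and DESeq2 and limma voom each called 0 genes. These fits left out the letter, as did the others between constructs unless a replicate block is named. With the letter as a replicate block, DESeq2 called 20 genes with N737H, none of them desmosome genes. Within letter A the differences from WT were -0.41 for DSG3, -0.31 for DSP, -0.51 for JUP, -0.41 for DSC3 and -0.11 for PERP. Within letter B they were -0.52, -0.43, -0.67, -0.11 and -0.52 in the same order. DSC2 and PKP1 turned direction between the letters, and their fitted differences turned to 0.20 without WT A and to 0.26 without WT B. The DSC3 difference was -0.03 without WT A and the PERP difference -0.13 without N737H B. The 7 keratinocyte markers were all below 0 with N737H, with a median of -0.43, and summed to 3361 and 2944 CPM with N737H against 4503 and 4467 CPM with WT. The part in these differences of that marker level, and of the 444 CPM of CARD14 in N737H A, was not tested. In these bulk libraries fewer cells of a type and less RNA per cell cannot be told apart.

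With I593T the gene furthest below WT among the 10 was DSG3, at -0.50 ± 0.15 on the log2 scale and a mean of 234 ± 8.11 CPM (SD, n = 2). DSC3 differed by -0.36 ± 0.18, PERP by -0.30 ± 0.16 and DSP by -0.28 ± 0.15. These 4 had both I593T libraries below both WT libraries, as 11% of all genes do. That order by itself gives the same direction within both letters. None of the 10 had both I593T libraries above, as 9.61% of all genes do. The other differences were -0.25 ± 0.46 for PKP1, -0.19 ± 0.22 for DSC2, -0.06 ± 0.17 for PKP2, -0.01 ± 0.14 for DSG2, 0.06 ± 0.30 for JUP and 0.55 ± 0.47 for PKP3. In all, 8 of 10 were below 0, with a median of -0.22 beside -0.02 over all genes, of which 54.4% were below 0.

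None of the 10 passed edgeR's test with I593T (adjusted p = 1.00 for each, 0% of all genes called), and DSG3 was the 1 member at an unadjusted p under 0.05, beside 1.43% of all genes. DESeq2 called 3 genes in this comparison and limma voom 0, none of them desmosome genes. JUP and PKP3 rested on I593T B: without it the JUP difference was -0.53 and the PKP3 difference -0.51, and without I593T A they were 0.48 and 1.15. CARD14 stood at 500 CPM in I593T A and 1394 CPM in I593T B. The keratinocyte markers summed to 3563 and 4326 CPM with I593T (A and B) against 4503 and 4467 CPM with WT. All 7 of these markers were below 0 with I593T, with a median of -0.20 on the log2 scale. The part of CARD14 and of the marker level in the differences of the desmosome genes was not tested. For DSG3, DSP, DSC3 and PERP the differences from WT were -0.43, -0.25, -0.42 and -0.17 on the log2 scale within A and -0.57, -0.31, -0.29 and -0.44 within B. Without WT A the DSC3 difference was -0.12 and the median of the 10 genes -0.07.

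With R820W the fitted differences of the 10 genes from WT ran from -0.24 ± 0.47 (PKP3) to 0.11 ± 0.30 (JUP), 5 genes were on either side of 0, and the median of -0.01 equalled that of all genes to this precision. The 95% interval of the DSG3 difference ran from -0.33 to 0.35 and that of DSP from -0.33 to 0.34, so the intervals still include smaller differences in either direction. The intervals were wider for JUP (-0.57 to 0.79), PKP1 (-0.998 to 1.11) and PKP3 (-1.32 to 0.85). Without R820W B the PKP1 difference was -0.41 and without WT B it was 0.79, and DSC2 stood at 0.30 without WT A and -0.37 without WT B. No gene of the 10 had both R820W libraries above or both below the WT libraries, where 12.6% and 12.8% of all genes do. edgeR called 0% of genes, with 1.04% and none of the 10 at an unadjusted p under 0.05, and DESeq2 and limma voom also called 0. Only JUP, PKP2 and PKP3 gave the same direction within both letters.

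**Figure D3:**
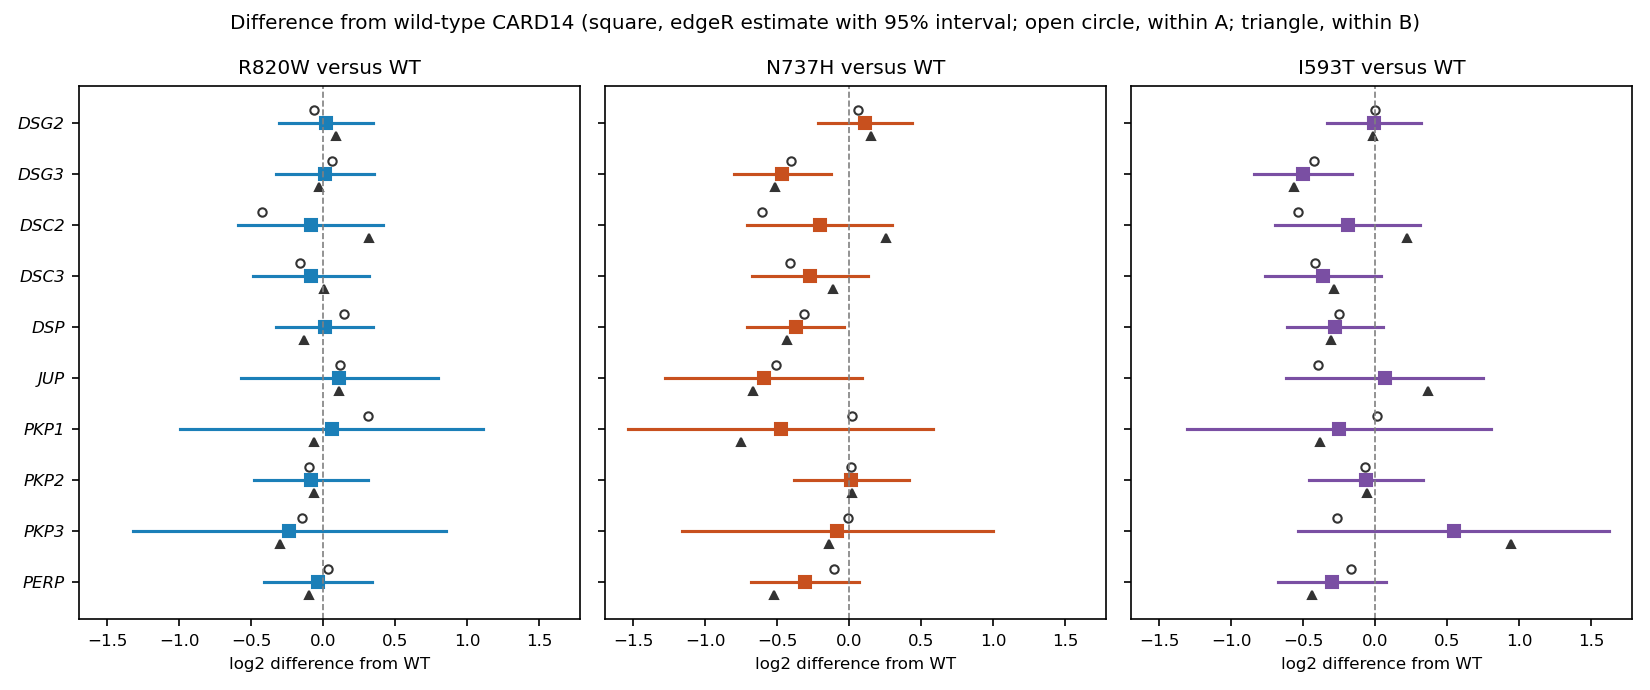
Difference of each variant from WT on the log2 scale for the 10 genes. Squares are edgeR estimates with 95% intervals, open circles the difference within letter A and triangles within letter B. Before adjustment, the intervals of DSG3 with N737H and I593T and that of DSP with N737H lie below 0. With R820W all 10 intervals include 0.

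The mean of the 3 variants, compared with WT, gave 8 of 10 genes below 0 and a median of -0.19 beside -0.02 over all genes. Of all genes, 54.0% were below 0. Among the 10 the lowest was DSG3 at -0.32 ± 0.12 and the highest PKP3 at 0.08 ± 0.38. None passed edgeR's test and 0% of genes were called; DSG3 was the 1 gene at an unadjusted p under 0.05, beside 1.31% of all genes. DESeq2 and limma voom called 0 genes. All 4 comparisons use the same 2 WT libraries, so their values are not independent of each other.

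In the pairs of variants R820W lay above both N737H and I593T in every library for DSG3, DSP, DSC3 and PERP, but no gene passed the test. For JUP this held against N737H alone, and R820W differed from I593T by 0.05 ± 0.30 on the log2 scale. DSG2, DSC2 and PKP2 differed by -0.10 to 0.12 in the R820W pairs. Against N737H, R820W was higher by 0.48 ± 0.15 for DSG3, 0.38 ± 0.15 for DSP and 0.71 ± 0.30 for JUP on the log2 scale. With DSC3 and PERP these made 5 of 10 genes with both R820W libraries above both N737H libraries, as in 15.2% of all genes. The median of the 10 was 0.23 beside -0.02. The 7 keratinocyte markers were all above 0 in this pair, with a median of 0.40. Against I593T, R820W was higher by 0.51 ± 0.15 for DSG3 and by 0.29 ± 0.15 for DSP. Here 4 genes, DSP, DSG3, DSC3 and PERP, had both R820W libraries above, as in 14.9% of all genes. For these 4 the order in both R820W pairs and against WT follows from the pattern given above, so the counts are not separate results. The median of the 10 was 0.18 beside 0.00. Of the 7 keratinocyte markers 6 were above 0 here, with a median of 0.25. CARD14 stood at 1190 and 1410 CPM with R820W (A and B), 444 and 1005 with N737H, and 500 and 1394 with I593T. The part of CARD14 and of the marker level was not tested. N737H and I593T differed from each other by 0.04 ± 0.15 for DSG3, with a 95% interval from -0.30 to 0.37, and by -0.66 ± 0.30 for JUP. The JUP difference was -0.08 without I593T B and -1.08 without I593T A. DSP and JUP had both N737H libraries below both I593T libraries, as in 10.7% of all genes, and DSG2 both above, as in 9.65%.

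edgeR called 0% of genes in each of these 3 pairs, with adjusted p = 1.00 for each of the 10. At an unadjusted p under 0.05 the fit held DSG3, DSP and JUP for R820W against N737H (1.63% of all genes), DSG3 for R820W against I593T (1.23%), and none of the 10 for N737H against I593T (1.14%). DESeq2 called 2, 0 and 1 genes in the same order, none of them desmosome genes, and limma voom called 0.

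Between the letters 1 of the 10 genes passed the test. PKP1 rose in the B libraries by 0.84 ± 0.13 (SE) on the log2 scale, or 1.80-fold, with a 95% interval from 0.54 to 1.15, an adjusted p of 0.0245 by edgeR and B above A in 4 of 4 constructs. Of all genes, 3.24% passed, with 1.71% higher in B. The call was lost on leaving out R820W A (adjusted p = 0.162), I593T A (0.132), R820W B (0.164) or I593T B (0.128), while the difference stayed between 0.71 and 0.97 over all 8 libraries left out in turn. The count of all called genes, 480, was 0, 31, 10 and 32 without those same libraries, 1069 without WT A and 1010 without WT B.

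The 9 other genes did not pass between the letters. PKP3 differed by 0.68 ± 0.24 with all 4 B libraries above all 4 A libraries, as PKP1 did and as 8% of all genes do, and its difference was 1.65 with I593T and 0.29 to 0.45 with the other constructs. PKP2 differed by -0.22 ± 0.08, with all 4 B libraries below, as in 10% of genes, and its 4 differences within constructs ran only from -0.24 to -0.20. JUP differed by 0.40 ± 0.16, with 1.01 within I593T and 0.09 to 0.25 within the other constructs, and by 0.19 without I593T A. It was higher in B with each construct, as were DSG2 and DSG3 (0.09 ± 0.08 and 0.12 ± 0.08) and, in all, 15.2% of genes. DSC3 differed by -0.21 ± 0.09 and was lower in B with each construct, as 17.8% of genes were. DSP, PERP and DSC2 differed by -0.06 ± 0.09, -0.11 ± 0.10 and -0.04 ± 0.15. At an unadjusted p under 0.05 the fit held 5 of the 10, beside 23% of all genes.

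**Figure D4:**
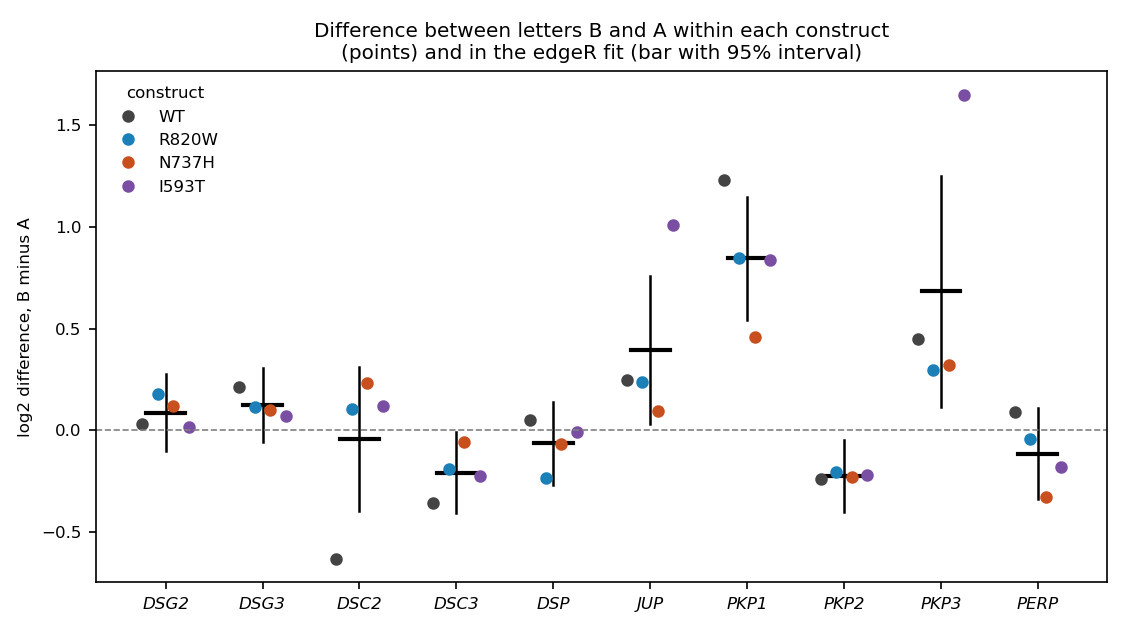
Difference between letters B and A for the 10 genes, on the log2 scale. Points are the difference within each construct and bars the edgeR estimate with its 95% interval; PKP1 is above 0 in all 4 constructs and PKP2 is at -0.24 to -0.20 in all 4.

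Other junction genes were read from lists chosen by function. No gene of any list passed against WT with N737H, I593T or R820W. Of 6 tested genes in the list of other desmosome and corneodesmosome genes, 3 were below 0 with N737H and 4 with I593T, with medians of -0.11 and -0.10. PPL differed by -0.31 ± 0.29 with N737H and -0.09 ± 0.29 with I593T, and PKP4, a plakophilin relative, by 0.09 ± 0.19 with each. Of 11 tested adherens junction genes, 10 were below 0 with N737H and 7 with I593T, with medians of -0.20 and -0.13. E-cadherin (CDH1) differed by -0.25 ± 0.18 and P-cadherin (CDH3) by -0.25 ± 0.16 with N737H.

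Tight junction genes numbered 13, of which 10 were below 0 with each of N737H and I593T, with medians of -0.24 and -0.11. CLDN4 differed by -0.25 ± 0.20 with N737H and CLDN7 by 0.24 ± 0.41, both being claudins, the strand-forming proteins. Of 12 tested keratins, the filaments that DSP anchors, 10 were below 0 with each of N737H and I593T, with medians of -0.42 and -0.15. KRT18 differed by -0.28 ± 0.20 and KRT8 by -0.31 ± 0.17 with N737H. With R820W the keratins lay on the other side, 11 of 12 being above 0 with a median of 0.16. The keratin list shares KRT5 and KRT14 with the keratinocyte markers.

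The 19 genes of desmosome assembly, kinases and shedding had 16 below 0 with N737H and 13 with I593T, with medians of -0.17 and -0.07, and 14 with R820W, with a median of -0.06. The sheddase ADAM9 differed by -0.05 ± 0.21 and the kinesin KIF5B by -0.17 ± 0.17 with N737H. Of 11 tested transcription factors known to regulate junction genes, 8 were below 0 with N737H and 6 with I593T. TP63, the master regulator of stratified epithelium, which activates PERP, differed by -0.35 ± 0.21 with N737H and -0.42 ± 0.21 with I593T, and MYC by -0.11 ± 0.15 and 0.07 ± 0.15. These counts stand beside 54.2% of all genes below 0 with N737H, 54.4% with I593T and 52.0% with R820W, and no list was tested against the rest. With R820W the counts below 0 were 3 of 6 other desmosome genes, 6 of 11 adherens junction genes, 6 of 13 tight junction genes and 6 of 11 transcription factors.

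Between the letters 2 genes of these lists passed, beside the 3.24% of all genes. CLDN1, a claudin of the epidermal barrier, fell in B by 0.58 on the log2 scale (SE 0.08, adjusted p = 0.0181 by edgeR). KLK5, a protease that cleaves corneodesmosomes, rose in B by 0.60 ± 0.11 (adjusted p = 0.0398).

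The mean of the 10 genes, each centred on its own mean, was lowest in I593T A and N737H A, at -0.20 and -0.18 on the log2 scale, and -0.11 in N737H B. It was 0.11 in I593T B, 0.05 and 0.16 in WT A and B, and 0.03 and 0.14 in R820W A and B. The genes were not scaled to equal spread, so those that vary most weigh most in this mean. These were PKP3, PKP1 and JUP, with coefficients of variation of 46.1%, 36.9% and 28.3%. In I593T B, PKP3 and JUP were at their highest, while DSG3, DSP, DSC3 and PERP were below every WT and R820W library. Among 8063 genes with a mean of at least 10 CPM, those whose log2 levels most resembled this profile over the 8 libraries were CYP2S1 (Pearson r = 0.988), ITPR3 (0.957), UBE3B, ECM1 and MED9 (0.956 each). CYP2S1 encodes a cytochrome P450 of epithelia, ITPR3 a calcium release channel and ECM1 an extracellular matrix protein of skin. CYP2S1 differed from WT by -0.66 with N737H, -0.31 with I593T and 0.02 with R820W. These correlations were chosen as the highest and share libraries and normalisation, so they are a description.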

How the data were processed

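RNA was measured in 8 libraries, 2 for each of 4 constructs. The authors deposited 1 table of whole-number counts per gene symbol, with no normalization, and each column matches 1 sample title. The submitters' processing notes name hg19, FastQC, MACS2 and DESeq2. Which aligner, counter, annotation and strand setting were used is not given in the sources used here, so reads shared by paralogous cadherins or by overlapping antisense genes may have been assigned in ways that could not be checked. Per the labels' protocols, extraction used mirVana and library preparation a NEBNext kit for low input. Of the names, 2 occurred more than once, and neither is a desmosome gene.

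The members and lists were chosen with earlier results of these data known. Genes were kept by filterByExpr in edgeR 4.0.16 (R 4.3.3), scaled by TMM factors and fitted by quasi-likelihood on group means over all 8 libraries, with 4 residual degrees of freedom. Letters were compared in a fit with construct and letter, with 3. All tests are two-sided with Benjamini-Hochberg adjustment over 14834 genes and a threshold of 0.05. Standard errors come from the fitted difference and its F statistic. Within a letter, log2 CPM values (prior count 2) were subtracted. DESeq2 1.42.0 and limma 3.58.1 were run as alternatives, with other filters, scalings and libraries left out. Of each list the 2 genes with the highest mean CPM, and any gene past the threshold, are named; the 5 genes most like the members were taken by Pearson r. NECTIN4 was not found in the table and was not analysed here. Exon lengths are from GENCODE 29 and promoters from RefSeq, both of a later build than the authors', and no coordinate was carried between builds.

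Over the 28 pairs of libraries chi-square per gene was at least 6.17, where counting noise alone gives about 1, so no library was a copy of another. Intervals cover the spread between libraries, which may include that of transfection, and not the choice of clone. The part of transfection in that spread was not tested.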

Additional observations from a re-analysis of the deposited data

Results flagged for a closer look

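DSC2 and PKP1 went in opposite directions in the letters A and B with all 3 variants against WT. DSC2 had a mean difference from WT of -0.52 on the log2 scale within A and of 0.26 within B, each variant being below WT in A and above it in B. PKP1 had a mean difference of 0.11 within A and of -0.40 within B. In PKP1 the 3 differences within A were 0.31, 0.02 and 0.01 for R820W, N737H and I593T, and those within B were -0.07, -0.75 and -0.38. The share of all genes with this pattern was not counted, so it cannot be called particular to DSC2 and PKP1. The difference between the letters was not tested, and each letter has 1 WT library that all 3 differences share. That library held the highest (A) and the lowest (B) DSC2 level of the 8, and the lowest (A) and the highest (B) PKP1 level.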

How the results depend on the processing

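Each comparison with a variant was recomputed under 17 other settings or, for the mean of the variants, 16, since that comparison already uses every library and fitting only the groups compared changes nothing. The comparison of letters had 14, as the block fits do not apply to it. Of the single-gene values, 1316 kept their side of the threshold and 4 lost the call, all PKP1 between letters. This count takes no account of direction where a gene was uncalled, and some directions did turn. Over the settings PKP1 with N737H ran from -0.91 to 0.26 and PKP3 with I593T from -0.51 to 1.15. No desmosome gene was called between constructs under any setting. DSG3, DSP, DSC3 and PERP were below WT with N737H and with I593T under all 17: DSG3 lay between -0.51 and -0.36 with N737H and between -0.55 and -0.39 with I593T. These 4 genes had every N737H and I593T library below every WT library. Leaving out 1 library could therefore hardly turn their direction, and the steadiness of that direction is no separate result. Members below 0 numbered 7 to 9 with N737H, 6 to 9 with I593T and 3 to 8 with R820W.

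The count over all genes moved. With no filter on low counts it was 2 for R820W, 2 for N737H, 8 for I593T and 2 for all variants together against WT, 8, 10 and 11 for R820W against N737H, R820W against I593T and N737H against I593T, and 760 between letters. DESeq2 called 3 genes for I593T against WT, 2 for R820W against N737H, 1 for N737H against I593T and 1267 between letters. Leaving out 1 library in turn gave 0 to 3 for I593T against WT, 0 to 1 for the mean of the variants, 0 to 3 for R820W against I593T, 0 to 3 for N737H against I593T and 0 to 1069 between letters, and 0 to 1 desmosome gene between letters. The median of the 10 genes was -0.24 for N737H both with at least 10 counts in at least 6 libraries and with only the groups compared, and -0.18 for I593T with limma voom. Over libraries left out it ran from -0.265 to -0.0656 for I593T, -0.21 to -0.11 for the mean of the variants, 0.16 to 0.28 for R820W against N737H, 0.0672 to 0.222 for R820W against I593T and 0.00669 to 0.0959 between letters. The cause of these shifts was not tested. Where a construct was left with 1 library, that library was assumed to vary like the others.

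The libraries share only a letter. Deviations from the group means correlated by 0.02 between WT and N737H and by 0.31 to 0.41 in the other pairs of constructs. With the letter as a replicate block in edgeR, 1 gene was called for R820W against N737H and none of the 10. At an unadjusted p under 0.05 that fit held 3 of the 10 with N737H, 2 with I593T and 0 with R820W against WT. Beside them stood 670, 500 and 384 of all 14834 genes, in the same order. For the mean of the variants it held 2, beside 527 genes. For R820W against N737H it held 4, beside 527 genes. R820W against I593T and N737H against I593T had 1 each, beside 385 and 313 genes. With a replicate block in DESeq2 the called genes numbered 1, 20, 3 and 3 for R820W, N737H, I593T and all variants together against WT. They numbered 28, 5 and 1 for the 3 pairs, again with none of the 10. The lowest adjusted p of the 10 by this DESeq2 fit was that of DSG3 in 4 comparisons. It was 0.248 with N737H, 0.354 with I593T, 0.284 for R820W against N737H and 0.415 for R820W against I593T. In the other comparisons the lowest was close to 1. Depth limits PKP3 most, at 245 to 638 counts per library.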
